A study of Homo sapiens with 6 samples.

Results

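The genes described here encode the unfolded protein response and the quality control machinery of the endoplasmic reticulum (ER). They are 41 genes chosen by symbol, of 16617 genes in the authors' deposited table, and all 41 were found there. The table comes from RNA sequencing of T3M4 cells, an established human pancreatic cancer line labelled as ductal adenocarcinoma. It compares 3 libraries of cells with a guide RNA against METTL13 (sgMETTL13, genotype label METTL13 knockdown, called KD in the table) with 3 libraries of cells with a control guide RNA (sgControl, genotype label WT, called WT in the table). METTL13 methylates the elongation factor eEF1A. All cells were grown in DMEM with fetal bovine serum and penicillin/streptomycin, and the labels give no agent that causes ER stress for either group. The labels do not say whether the sgMETTL13 cells were a pool or a clone, nor whether the libraries of a group came from separate cultures, so the p-values measure the spread between these libraries, which may be technical.

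Proteins that are secreted or sit in membranes enter the ER through a channel, fold there with the help of chaperones and disulfide isomerases, and are sent back to the cytosol for destruction when folding fails. When unfolded proteins build up, the sensors IRE1, ATF6 and PERK start the unfolded protein response. IRE1 splices XBP1 mRNA so that it encodes an active transcription factor, ATF6 is cut in the Golgi to release one, and PERK slows translation and favours ATF4. These factors raise the transcripts of chaperones and of ER-associated degradation.

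The labels were checked first. METTL13 averaged 5.63 TPM (transcript reads per unit length, scaled to the same total in every library) in sgMETTL13 cells, against 39.9 TPM in sgControl cells, in the authors' deposited table. Its log2 ratio there, sgMETTL13 over sgControl, was -2.78, with an adjusted p of 2.5e-127. The 6 epithelial and ductal markers (EPCAM, KRT7, KRT8, KRT18, KRT19 and CDH1) summed to 4602 TPM in sgMETTL13 and 4739 TPM in sgControl cells in the same table, and for none of the 6 was the adjusted p under 0.05. Of 4 fibroblast markers COL1A1 had the highest level, at 14.2 TPM in sgMETTL13 and 13.99 TPM in sgControl cells, and the macrophage marker CD68, which other cells also express, stood at 44.1 TPM in sgMETTL13 and 40.9 TPM in sgControl cells. PDGFRB, another of the 4, was listed at 0 in sgMETTL13. The 3 endothelial markers summed to 1.44 TPM in sgMETTL13 and 2.04 TPM in sgControl cells, the 2 acinar markers to 1.96 TPM in sgMETTL13 and 0.81 TPM in sgControl cells, and the endocrine marker CHGA stood at 0.083 TPM in sgMETTL13 and was listed at 0 in sgControl cells. No marker was called. The average read counts of the table summed to 15247500 per sgMETTL13 library and 15240866 per sgControl library.

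The ER stress and quality control genes differed little between the groups. XBP1, the transcription factor of the IRE1 branch, rose in sgMETTL13 cells, and no other member passed the test in either direction. A gene is called here when its adjusted p in the authors' deposited table is under 0.05. By that rule 1 of the 41 members was higher, where 2.73% of all genes were called higher, and 0 were lower, where 1.08% were called lower. In both directions the share was 2.44% of the members and 3.80% of all genes. Of the 39 members with at least 205 mean reads, the median over all genes, 2.56% were called, against 7.04% of the 8309 genes of that abundance. The share of called members was therefore at or below the background.

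At an unadjusted p under 0.05, a looser rule, 8 members stood out in the authors' deposited table. They were XBP1, SEC61G, HERPUD1, SEC61B, OS9 and SYVN1, with 6 higher where the share over all genes was 7.65%, and EDEM3 and PDIA4, with 2 lower where it was 4.80%. These 8 made up 19.5% of the members, where the share over all genes was 12.4%. Over genes with at least the median read count it was 20.5% of the members and 21.0% of all, so the share among members was close to that background.

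Sizes were small. The median log2 ratio of the 41 members was 0.033 in the authors' deposited table, against 0.0014 over all genes, with quartiles of -0.030 and 0.123. The sign of that median depends on the scaling between groups: it was -0.019 from the ratio of average read counts and -0.034 from average TPM with a pseudocount of 1. The median size of change, without its sign, was 0.079 in the members and 0.089 in genes with at least the median read count. An interval for each gene was derived from the deposited fold change and p-value. For 31 of 41 members this 95% interval lay wholly between a fall of 20% and a rise of 25%, as it did for 66.2% of genes with at least the median read count. For 40 members it lay between a fall of 33.3% and a rise of 50%, the exception being DERL3 with 28.5 mean reads. In a bulk sample a change in all cells and a larger change in some of them cannot be told apart, and fewer cells of a type and less RNA per cell cannot be told apart either.

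**Figure D1:**
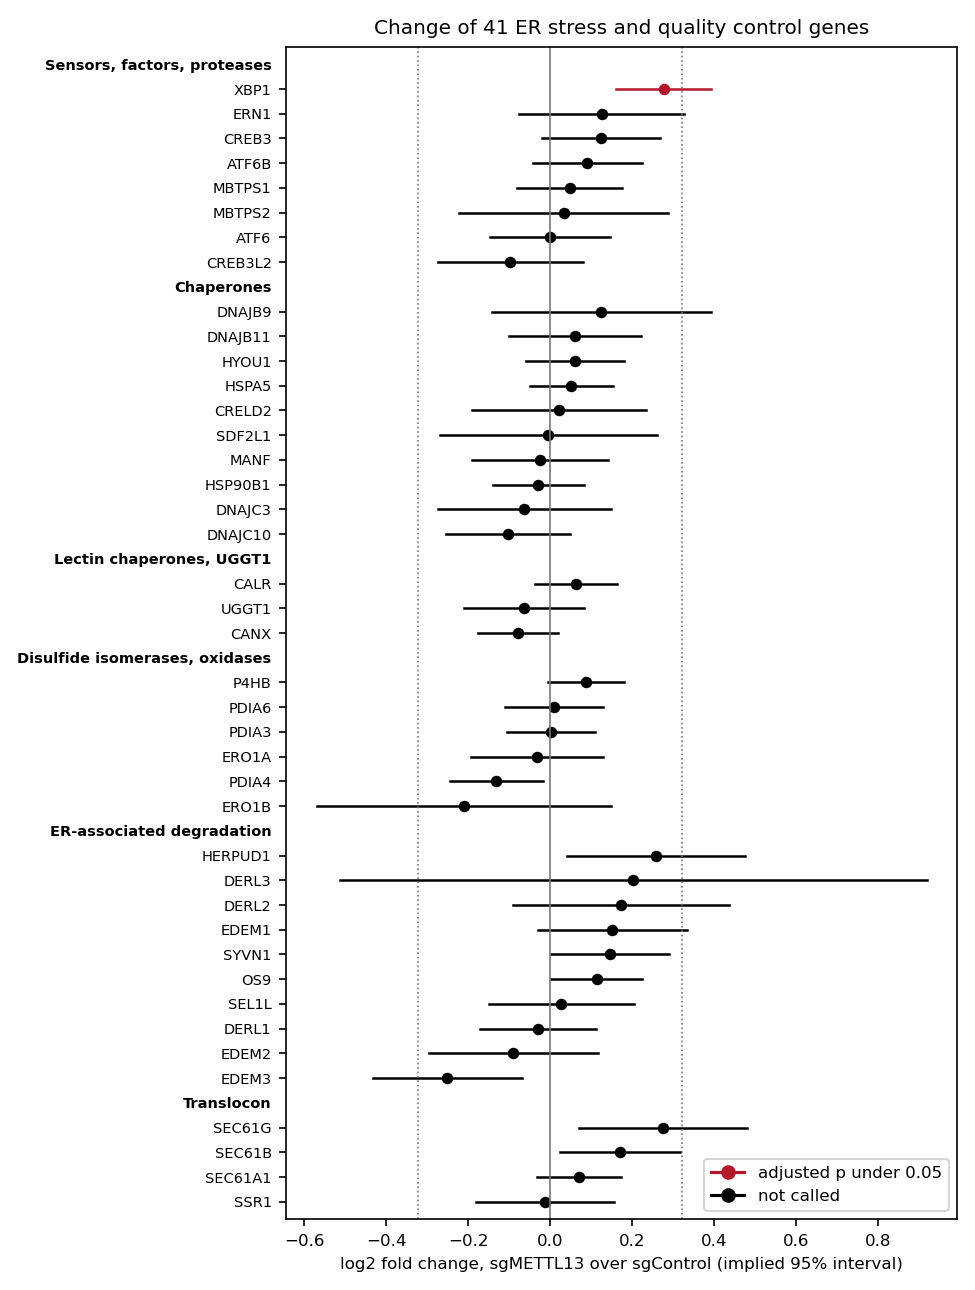
Log2 fold change of the 41 genes (horizontal axis, sgMETTL13 over sgControl) by role, as points with their implied 95% intervals as bars; dotted lines mark a fall of 20% and a rise of 25%. XBP1, in red at 0.28, is the gene with an adjusted p under 0.05, and 31 intervals lie between the dotted lines.

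Among the sensors, transcription factors and their proteases, XBP1 was the 1 of 8 that was called. XBP1 (Entrez gene 7494) averaged 280.9 TPM in sgMETTL13 and 244.1 TPM in sgControl cells in the authors' deposited table, which is 15.1% higher in sgMETTL13. In average read counts the authors' deposited table gave 3859 reads for sgMETTL13 and 3300 for sgControl, or 16.9% higher. The deposited log2 ratio, which carries the authors' scaling between groups, was 0.28 with an adjusted p of 0.000253 (implied standard error 0.059, 95% interval 0.16 to 0.39). That is a rise of 21.2%, with an interval from 11.8% to 31.3%. It ranked 180th among all genes by p, and 294th by size among the 453 called rises, whose median log2 ratio was 0.31. Once the dependence of the ratios on GC content and transcript length was taken out, XBP1 stood at 0.24 with an adjusted p of 0.0042. XBP1 is on the minus strand of chromosome 22, from 28794555 to 28800597 (GRCh38, GENCODE 29). The table counts reads per gene, so the spliced and unspliced forms of XBP1 mRNA were not told apart, and splicing by IRE1 was not tested.

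No sensor was called. ERN1, which encodes IRE1, averaged 7.13 TPM in sgMETTL13 and 6.96 TPM in sgControl cells in the authors' deposited table, with a log2 ratio of 0.13 (implied 95% interval -0.076 to 0.33, adjusted p = 0.781). ATF6, the sensor that is cut in the Golgi, averaged 38.6 TPM in sgMETTL13 and 39.6 TPM in sgControl cells (log2 ratio -0.0015, interval -0.148 to 0.145, adjusted p = 0.995, authors' deposited table). The interval of ATF6 ran from -9.74% to 10.6% as a percent change. The level of XBP1 transcript was 37.3 times that of ERN1 and 6.71 times that of ATF6 in TPM averaged over the groups. ATF6B, the relative of ATF6, had a log2 ratio of 0.090 and CREB3, another membrane-bound factor released by cutting, 0.12, while CREB3L2 of the same family had -0.098, in the authors' deposited table. MBTPS1 and MBTPS2 encode the Golgi proteases that cut ATF6. Their log2 ratios in the authors' deposited table were 0.048 and 0.033, with adjusted p of 0.949 and 0.968.

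The promoters of the members were searched for the DNA elements through which ATF6 and XBP1 are known to act, and the matches are shown so that their letters can be read beside the values. Known targets such as DNAJB9 and EDEM1 have no match in the window. The ER stress element (ERSE) is CCAAT, then 9 bases, then CCACG, and its shorter form ERSE-II is ATTGG, then 1 base, then CCACG. The unfolded protein response element (UPRE) was searched as TGACGTGG. Each was looked for on both strands in RefSeq promoter windows (GRCh38.p14) of 250 bases before to 50 after the start site, which 38 of the 41 members have. Some genes, such as CANX, have several start sites, and a gene with more windows has more places for a match. ERSE was found in 8 members, or 21.1%, against 0.160% of the 13104 genes of the table that have a window. ERSE-II was found in 3 members, or 7.89%, against 0.114%, and UPRE in 2, or 5.26%, against 1.11%. The further genes of ER stress signalling and the early secretory pathway, taken up below, include 130 with a window. Of these, 1 held an ERSE, 0 an ERSE-II and 12 a UPRE, the last being 9.23%, a larger share than in the members. The members include genes on which these elements were first described, so the shares are no independent finding. The UPRE matches among the members were in DNAJC10 and HYOU1, and in HYOU1 the UPRE overlaps an ERSE-II. The XBP1 promoter holds an ERSE whose first base lies 52 bases before the start site, and that of HSPA5, which encodes the main ER chaperone BiP, holds one at 66 bases. The 250 bases before the start site of each gene are given 5′ to 3′ on the strand of the gene, with the fixed letters of ERSE in capitals. The XBP1 window is chr22:28800570-28800819 and the HSPA5 window chr9:125241344-125241593, both on the minus strand. Windows and distances follow RefSeq start sites, which can differ from GENCODE. That of XBP1 overlaps the GENCODE extent of the gene, which reaches to 28800597.
XBP1: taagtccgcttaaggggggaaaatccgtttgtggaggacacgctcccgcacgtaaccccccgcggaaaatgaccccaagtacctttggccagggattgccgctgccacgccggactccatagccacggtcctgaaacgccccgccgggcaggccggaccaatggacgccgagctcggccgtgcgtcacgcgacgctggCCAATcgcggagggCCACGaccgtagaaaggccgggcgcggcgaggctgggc
HSPA5: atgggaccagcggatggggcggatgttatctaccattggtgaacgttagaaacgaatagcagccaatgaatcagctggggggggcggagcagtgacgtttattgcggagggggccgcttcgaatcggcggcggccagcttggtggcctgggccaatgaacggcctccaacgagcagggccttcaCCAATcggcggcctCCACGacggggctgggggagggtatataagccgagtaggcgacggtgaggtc

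The matched sites of the other members follow, each read on the strand that holds the match, with the letters fixed by the search in capitals, so that they can vary at the bases in lower case. In GRCh38.p14 the ERSE matches lie at chr19:12938384-12938402 for CALR, chr5:179698778-179698796 for CANX, chr22:49918554-49918572 for CRELD2, chr1:236282183-236282201 for ERO1B and chr2:10812853-10812871 for PDIA6. HSP90B1 has a pair, at chr12:103930216-103930234 and chr12:103930321-103930339. The ERSE-II matches lie at chr16:56932025-56932035 for HERPUD1 and chr22:21642114-21642124 for SDF2L1, and HYOU1 has a pair with the same letters at chr11:119057274-119057284 and chr11:119057380-119057390. Those of CALR, CRELD2, ERO1B, HYOU1 and SDF2L1 and the match of HSP90B1 nearer to the start are on the strand opposite to the gene.
CALR: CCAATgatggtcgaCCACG
CANX: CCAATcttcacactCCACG
CRELD2: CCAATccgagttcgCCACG
ERO1B: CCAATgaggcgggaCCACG
HSP90B1 farther from the start: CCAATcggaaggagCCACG
HSP90B1 nearer to the start: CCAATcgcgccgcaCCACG
PDIA6: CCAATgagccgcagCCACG
HERPUD1: ATTGGgCCACG
HYOU1: ATTGGaCCACG
SDF2L1: ATTGGtCCACG

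Of the 8 members with an ERSE in the window, XBP1 was called and the other 7 were not, a share of 12.5% where 3.80% of all genes were called. Of the 21 genes of the table with an ERSE, 4.76% were called. The 1 called gene among these 21 is XBP1 itself, so that share is no separate background. With 8 genes, 1 call is too few to read a share from. The median log2 ratio in the authors' deposited table was 0.015 over the 8 with ERSE and 0.054 over the 30 without it. Over the 3 with ERSE-II the median was 0.060. A match describes the letters only, and binding in these cells was not measured.

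Among the chaperones and cochaperones, most of them textbook targets of the response, none of the 10 was called, and 0 of the 10 had an unadjusted p under 0.05 in the authors' deposited table. Over all genes 3.80% were called and 12.4% had such a p, so a count of 0 in 10 genes does not set the chaperones apart. HSPA5 averaged 523.7 TPM in sgMETTL13 and 531.7 TPM in sgControl cells in the authors' deposited table. Its log2 ratio was 0.051 there, with an implied 95% interval of -0.050 to 0.152, or -3.40% to 11.1% as a percent change. Its sign depends on the scaling, with -0.0013 from average read counts and -0.022 from average TPM. HSPA5 is 1 of 6 members, with ATF6, EDEM2, ERO1B, SSR1 and UGGT1, whose deposited averages do not come from whole reads, so how reads shared with other genes were divided can affect their values. HSP90B1, the ER member of the HSP90 family, averaged 337.3 TPM in sgMETTL13 and 361.9 TPM in sgControl cells in the authors' deposited table, with a log2 ratio of -0.029 (interval -0.140 to 0.082). HYOU1, which acts as a nucleotide exchange factor for BiP, had a log2 ratio of 0.060 in the authors' deposited table, and the secreted stress factors MANF and CRELD2 had -0.025 and 0.021.

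The J-domain cochaperones, which drive the ATP cycle of BiP, lay on either side of 0. Their log2 ratios in the authors' deposited table were 0.12 for DNAJB9, 0.061 for DNAJB11, -0.063 for DNAJC3 and -0.103 for the disulfide reductase DNAJC10. SDF2L1, which forms a complex with DNAJB11, stood at -0.0049. DNAJB9 is known as a sensitive target of spliced XBP1, and averaged 11.5 TPM in sgMETTL13 and 11.1 TPM in sgControl cells in the authors' deposited table. Its interval ran from -0.142 to 0.39, which is wide enough to hold the change seen in XBP1. The median over the 10 chaperone genes was 0.0082.

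The lectin chaperones hold glycoproteins that still carry a glucose, and UGGT1 puts the glucose back on those that are not folded. CALR, which encodes calreticulin, had the highest level of the 41, with 935.2 TPM in sgMETTL13 and 941.6 TPM in sgControl cells in the authors' deposited table. Its log2 ratio was 0.063 (implied 95% interval -0.038 to 0.163, adjusted p = 0.781, authors' deposited table). It was 0.0024 once the dependence on GC content and transcript length was taken out, and -0.010 from average TPM. CANX, its membrane-bound relative calnexin, averaged 308.6 TPM in sgMETTL13 and 343.2 TPM in sgControl cells in the authors' deposited table. The log2 ratio of CANX was -0.079 (interval -0.177 to 0.020), and that of UGGT1 -0.064. None of the 3 was called.

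Disulfide bonds are made by protein disulfide isomerases, which the ERO1 oxidases recharge. P4HB, the founding isomerase, averaged 710.7 TPM in sgMETTL13 and 703.5 TPM in sgControl cells in the authors' deposited table, with a log2 ratio of 0.088 (implied 95% interval -0.0044 to 0.180, adjusted p = 0.452), and 0.013 once the dependence on GC content and transcript length was taken out. PDIA4 lay on the other side, at 120.2 TPM in sgMETTL13 and 138.6 TPM in sgControl cells in the authors' deposited table. Its log2 ratio was -0.13 (interval -0.245 to -0.018, adjusted p = 0.256), and it missed the threshold. PDIA3, the isomerase that works with calnexin and calreticulin, and PDIA6 were at 0.0016 and 0.0080 in the authors' deposited table. PDIA3 averaged 218.6 TPM in sgMETTL13 and 229.6 TPM in sgControl cells in that table, a gap in TPM that the scaled fold change does not show. The oxidase ERO1A had a log2 ratio of -0.032 and its relative ERO1B -0.21 in the authors' deposited table. ERO1B had 142 mean reads and an interval from -0.57 to 0.148, so neither a rise nor a fall was determined. None of the 6 was called.

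ER-associated degradation recognises misfolded proteins, moves them out of the ER and marks them with ubiquitin. None of its 10 genes was called, 3 were higher and 1 lower at an unadjusted p under 0.05, and the median log2 ratio was 0.13 in the authors' deposited table. Over all genes 3.80% were called, 7.65% were higher and 4.80% lower at that unadjusted p, and 21.0% of genes with at least the median read count had such a p in either direction. HERPUD1, a stress-induced scaffold of the degradation complex, averaged 25.7 TPM in sgMETTL13 and 22.7 TPM in sgControl cells in the authors' deposited table. Its log2 ratio was 0.26 (implied 95% interval 0.042 to 0.47), but its adjusted p was 0.231. SYVN1, the ubiquitin ligase at the centre of the complex, averaged 166.1 TPM in sgMETTL13 and 158.4 TPM in sgControl cells in the authors' deposited table (log2 ratio 0.14, adjusted p = 0.401). OS9, a lectin that delivers glycoproteins to it, averaged 270.3 TPM in sgMETTL13 and 262.4 TPM in sgControl cells in the authors' deposited table (0.11, adjusted p = 0.380). Once the dependence on GC content and transcript length was taken out, SYVN1 stood at 0.075 and OS9 at 0.063. SEL1L, the partner that holds SYVN1 in place, was at 0.027.

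The mannosidase-like EDEM genes, which mark glycoproteins for degradation, had ratios on either side of 0. EDEM3 averaged 9.35 TPM in sgMETTL13 and 11.8 TPM in sgControl cells in the authors' deposited table, with a log2 ratio of -0.25 (implied 95% interval -0.43 to -0.069). Its adjusted p of 0.118 was the smallest of the members after XBP1. EDEM1, a known XBP1 target, had a log2 ratio of 0.15 (interval -0.031 to 0.33) and EDEM2 -0.091 in the authors' deposited table. The derlins, which form part of the exit channel, were led in level by DERL1, at 58.6 TPM in sgMETTL13 and 64.7 TPM in sgControl cells in the authors' deposited table, 9.02 times the level of DERL2 in TPM averaged over the groups. DERL1, DERL2 and DERL3 had log2 ratios of -0.030, 0.17 and 0.20 in that table. DERL3 had 28.5 mean reads, and its interval from -0.51 to 0.92 does not settle a direction.

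The translocon is the channel through which new proteins enter the ER. SEC61G, its gamma subunit, averaged 202.8 TPM in sgMETTL13 and 175.9 TPM in sgControl cells in the authors' deposited table. Its log2 ratio of 0.28 equals that of XBP1 to 2 decimals, but its interval was wider, from 0.071 to 0.48, and the adjusted p was 0.134. SEC61B, the beta subunit, averaged 309.9 TPM in sgMETTL13 and 289.7 TPM in sgControl cells in the authors' deposited table (log2 ratio 0.17, interval 0.023 to 0.32, adjusted p = 0.261). SEC61A1, which forms the pore itself, averaged 227.5 TPM in sgMETTL13 and 227.9 TPM in sgControl cells in that table, with a log2 ratio of 0.071 (interval -0.031 to 0.173). SSR1, a subunit of the translocon-associated complex, stood at -0.013. SEC61B and SEC61G have the shortest transcripts of the members, 587 and 732 bases in GENCODE 29. Once the dependence on GC content and transcript length was taken out, their log2 ratios were 0.098 and 0.21, with adjusted p of 0.808 and 0.443.

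**Figure D2:**
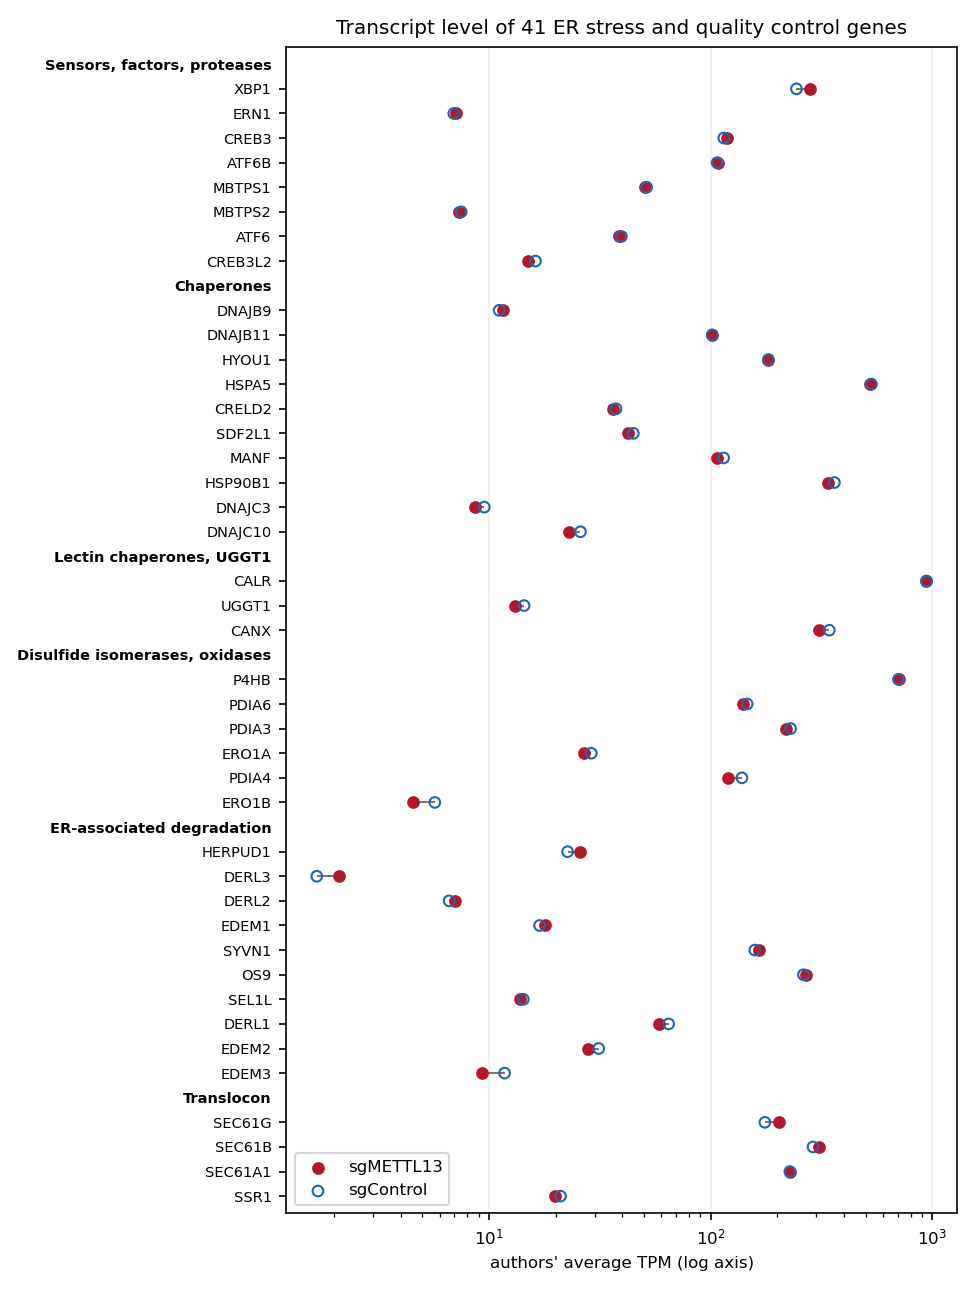
Average TPM of the 41 genes in sgMETTL13 (filled red) and sgControl (open blue) as the authors deposited it, on a log axis, by role. Levels run from CALR, at 935.2 TPM in sgMETTL13 and 941.6 TPM in sgControl, to DERL3, at 2.11 TPM in sgMETTL13 and 1.68 TPM in sgControl, and in most rows the points of the groups overlap.

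The members are abundant transcripts, which bears on how closely they were measured. Summed over the 41 genes, the authors' deposited table gave 5835 TPM in sgMETTL13 and 5866 TPM in sgControl cells, or 0.584% of all TPM in sgMETTL13 and 0.587% in sgControl. By role the sum for sgMETTL13 was 96.5% of that for sgControl in the chaperones, 96.7% in the lectin group, 97.5% in the isomerases and oxidases, 101.4% in degradation, 106.4% in the translocon and 106.7% in the sensors and factors, the last mostly through XBP1. In TPM 27 of 41 members were lower in sgMETTL13 cells, and 11 of these 27 have a deposited log2 ratio above 0. For abundant genes the deposited value lies 0.052 above the log2 ratio of the average read counts, so the direction of changes of that size depends on the scaling. The members' median implied standard error was 0.077, where it was 0.089 for all genes with at least the median read count and 0.574 for the rest.

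**Figure D3:**
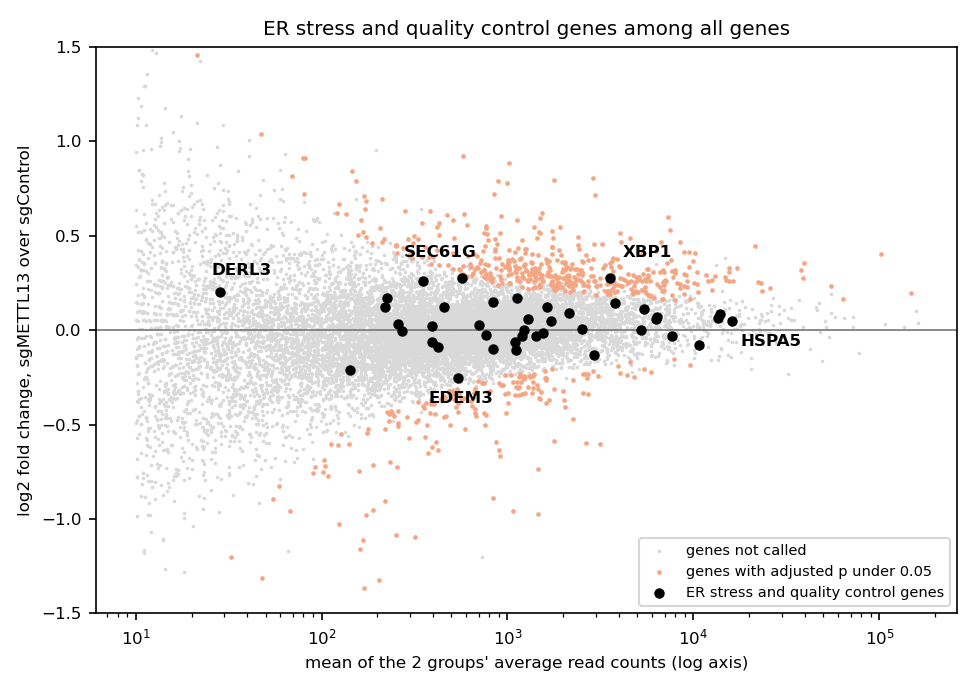
Log2 fold change (vertical axis, sgMETTL13 over sgControl) against the mean of the groups' average read counts (log axis) for genes with at least 10 mean reads; 6 such genes lie beyond the plotted range of 1.5 either way. The 41 genes (black) lie within the grey band of genes not called, except XBP1 at 0.28.

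Other genes of ER stress signalling and of the early secretory pathway were taken from 8 lists, with 157 of 159 genes in the table. Of the 157, 3 were called in the authors' deposited table, all higher, which is 1.91% where 3.80% of all genes were called. All 3 were in the list of 12 genes written for the PERK arm and its targets, with earlier results of these data known. That list also holds ERN2, which encodes the beta form of IRE1, belongs to the IRE1 branch and was listed at 0 in sgMETTL13 cells. PPP1R15A, which ends the PERK signal by restoring eIF2, averaged 95.7 TPM in sgMETTL13 and 70.5 TPM in sgControl cells in the authors' deposited table (log2 ratio 0.52, implied 95% interval 0.38 to 0.65, adjusted p = 8.61e-11). TRIB3, a pseudokinase induced by ATF4 and CHOP, averaged 115.6 TPM in sgMETTL13 and 94.0 TPM in sgControl cells in that table (0.37, interval 0.24 to 0.50, adjusted p = 1.53e-06). ATF3, a stress-induced transcription factor with 200 average reads in sgMETTL13 and 147 in sgControl, rose by 0.50 in the authors' deposited table (interval 0.20 to 0.79, adjusted p = 0.0301), and was no longer called once the dependence on GC content and transcript length was taken out (0.46, adjusted p = 0.079).

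The sensor and the central factors of that arm did not pass the test. EIF2AK3, which encodes PERK, had a log2 ratio of -0.087 (implied 95% interval -0.39 to 0.214) in the authors' deposited table. ATF4 was at 0.14 (interval 0.023 to 0.252) with an adjusted p of 0.223. DDIT3, which encodes the pro-apoptotic factor CHOP, was at 0.27 (interval 0.034 to 0.506) with 0.268. At an unadjusted p under 0.05, 5 of the 12 genes of this list were higher and 0 lower. That is 41.7%, where it was 12.4% of all genes and 21.0% of those with at least the median read count. The list was written with earlier results of these data known, so the share is no independent finding. Kinases other than PERK also lead to ATF4, and whether any of these kinases was active was not measured.

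In the other 7 lists none of 145 genes passed the test in the authors' deposited table, and 12 had an unadjusted p under 0.05. That is 8.28%, where 12.4% of all genes and 21.0% of those with at least the median read count had such a p. None was called of 18 further regulators of the response (median log2 ratio 0.0072), 22 further chaperones and prolyl isomerases (0.0041) or 18 further thiol oxidoreductases (0.080). The 19 genes of N-glycosylation (0.055), 29 of further ER-associated degradation (-0.0080), 20 of targeting and translocation (0.028) and 19 of the COPII coat and ER exit (-0.0024) had no called gene either. Closest to the threshold were MLEC, a lectin of early glycans (-0.16, adjusted p = 0.057), AUP1, a degradation factor on lipid droplets (0.17, adjusted p = 0.063), and OST4, a small subunit of the oligosaccharyltransferase (0.28, adjusted p = 0.065), in the authors' deposited table. MLEC, AUP1 and OST4 were called when only genes with at least the median read count were tested. All 3 were also called at an adjusted p under 0.1, and MLEC alone of the 3 when ratios were centred. These 3, like EIF2AK3, ATF4 and DDIT3, were named after their values were seen.

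**Figure D4:**
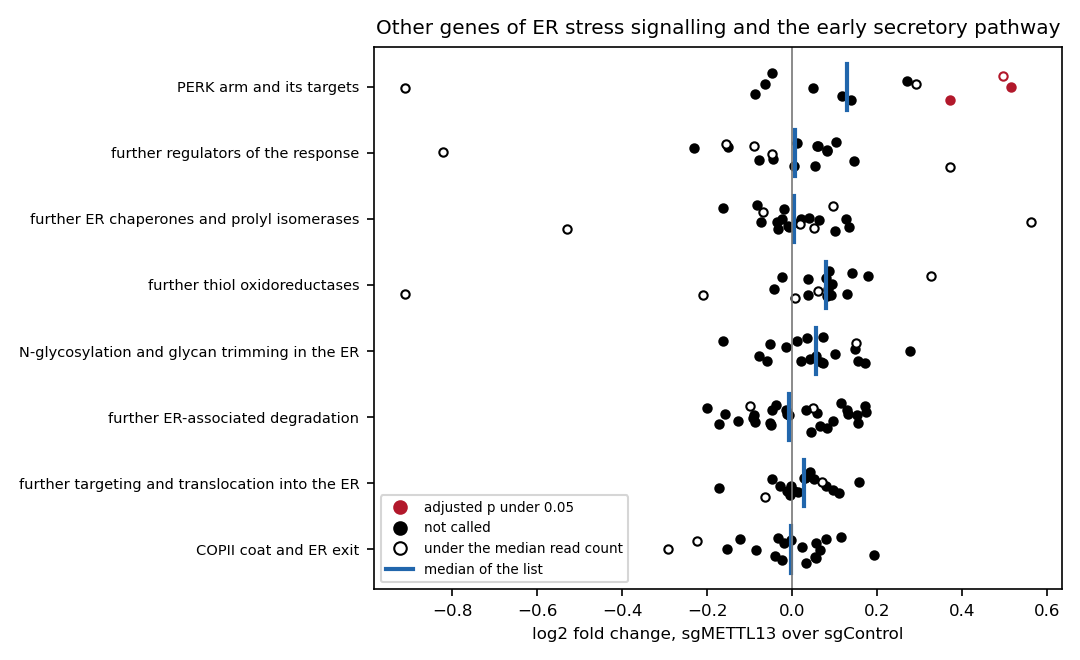
Log2 fold change (horizontal axis, sgMETTL13 over sgControl) of 157 further genes in 8 lists, 1 point a gene, spread vertically within its list for legibility; red points have an adjusted p under 0.05, open points lie under the median read count and blue bars are list medians. The 3 red points, between 0.37 and 0.52, are PPP1R15A, ATF3 and TRIB3.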

How the data were processed

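RNA was sequenced from 3 sgMETTL13 and 3 sgControl libraries of T3M4 cells. The submitters' processing notes name RSEM 1.2.12, Bowtie2 2.2.5, HISAT2 2.0.4 and DESeq2 and the builds hg38 and GRCh38.p12. The use made of each tool was not given in the sources used here, nor was the handling of strand, so genes that overlap on opposite strands may share reads. Per the file headers, the authors deposited average TPM, average FPKM (not used here) and average read counts for each group. The averages are estimated counts, since 21.4% of genes have a deposited average that is not a whole sum of reads divided by 3 (tolerance 0.005 on the sum). The authors also deposited a p-value, a q-value and a log2 ratio, KD divided by WT. The q-value, called the adjusted p here, lies within 1.22% of a Benjamini-Hochberg value recomputed from the deposited p-value. The depth of each library is unknown.

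No count model was fitted, because the table holds averages; the planned count model for single libraries could not be run. The implied standard error is the size of the deposited log2 ratio over the normal quantile of the deposited p-value, and assumes a normal test. Transcript GC content and length came from GENCODE 29, matched by Entrez gene ID for 97.5% of genes and all 41 members, and their trend was fitted with splines of 4 degrees of freedom. Promoters came from RefSeq. Steps were tested on simulated data. Members and gene lists were chosen with earlier results of these data known. The rule for values in full was the called members, the 5 next by p, the 10 highest in TPM, and XBP1, ERN1 and ATF6; values of other members were added to complete their role groups. Alternatives were other adjustments and thresholds, only genes with at least the median read count, centring, the trend removal, and unscaled ratios of reads or TPM with pseudocounts of 0.1 and 1. Calculations ran in Python 3.11.15 with scipy 1.17.1, pandas 2.3.3, numpy 2.4.6 and patsy 1.0.2, and plots were drawn with matplotlib 3.10.9.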

Additional observations from a re-analysis of the deposited data

How the results depend on the processing

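XBP1 was called in each of the 7 alternatives that have a test, and its log2 ratio lay between 0.20 and 0.28 over all 10 alternatives. The 7 are not independent of each other. Other thresholds, other adjustments and the choice of genes reuse the deposited p-value. Only centring and the trend removal change the ratio that is tested. No other member was called in any of the 7. The smallest adjusted p among these members was 0.118, so the other thresholds and adjustments could not have called one. The count of called genes among the 157 further pathway genes was 3. It fell to 2, PPP1R15A and TRIB3, at an adjusted p under 0.01 and under Bonferroni adjustment. Taking out the dependence on GC content and transcript length also left these 2. With ratios centred the count was 4, with MLEC added. It became 6 at an adjusted p under 0.1, and 5 when only genes with at least the median read count were tested. The 5 were PPP1R15A, TRIB3, AUP1, MLEC and OST4, and the 6 were these and ATF3. ATF3 lies under the median read count, so it was not tested in the setting that gave 5. Some members that were never called changed sign. With ratios centred, PDIA3 stood at -0.0094 and PDIA6 at -0.0031. Once the dependence on GC content and transcript length was taken out, ATF6 stood at 0.054, CRELD2 at -0.088, ERO1A at 0.017 and SSR1 at 0.049. Centring subtracts the same amount from every ratio. The trend fit has a constant term too, so its values can hold a shift common to all genes beside the GC and length trend. The cause of the other shifts was not tested. Taking out that dependence moved a further 23 members by over 1.5 times without a change of sign. Unscaled ratios of average TPM moved 16 of 41 members by more than their implied standard error and gave 11 the other sign (CALR, CRELD2, DNAJB11, HSPA5, HYOU1, MBTPS1, MBTPS2, PDIA3, PDIA6, SEC61A1 and SEL1L), and the ratio of average read counts gave the other sign to 7 of these 11. No paired analysis was possible because only averages of each group are in the table, and leaving out single libraries was not run for the same reason. Few reads limit DERL3, whose interval holds both a rise and a fall of the size seen in XBP1, and ERO1B, whose interval holds such a fall but no such rise. Intervals of other uncalled members also hold a change of that size. Among them are HERPUD1, SEC61G, DERL2 and DNAJB9 for a rise, and EDEM2 and EDEM3 for a fall.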
